A study of Mus musculus with 16 samples.

Results

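Long clusters of H3K4me3 peaks were described in young hematopoietic stem cells (HSCs), which sustain all lineages of the blood. The clusters were chosen by the young H3K4me3 peaks themselves. Peaks of the pooled young list on chromosomes 1 to 19 that lay within 1 kb of each other were joined, and joined regions of 1500 bp or longer were kept. This gave 512 long clusters of 8403 joined regions, and the other 7891 are called shorter regions here. The length of the clusters, the number of peaks in them and the strength of those peaks follow from this choice, so these are given as descriptions. What the aged list, the other marks, the annotation and the sequence hold at the same places was not used to choose them.

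HSCs came from C57BL/6 mice, young (10 weeks) or aged (20 months), and were sorted from pooled bone marrow as cells negative for IL-7 (so written in the labels, while the study's antibody was against the receptor IL-7Rα), Lin, CD34, CD48 and Flt3 and positive for Sca-1, c-kit and CD150. Chromatin immunoprecipitation sequencing (ChIP-seq) of H3K4me3, H3K27me3 and H2AK119ub1 was done on 2 libraries of each mark at each age, and 2 input libraries were made at each age, 16 libraries in all. Peaks were used as 1 list per mark and age, deposited as pooled. Peak names in the H3K27me3 and H2AK119ub1 lists carry a single library number, so the values of these marks may rest on 1 library each. There are therefore no replicate values, no difference between the ages was tested, and the 95% confidence intervals (CI) below cover counting error over regions or peaks only. On chromosomes 1 to 19 the young H3K4me3 list held 11279 peaks and the aged list 6686 peaks. The lowest background recovered from a peak came to 3.704 reads for the young list and to 3.523 reads for the aged list, and the median background under all peaks to 3.96 and 3.52 reads. The caller scales these values, so they do not give the depth of the libraries, which the lists do not hold. A place that is missing from a list is only below the caller's threshold, and fewer cells with the mark and less mark per cell cannot be told apart.

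H3K4me3 is laid down by the SET1 and MLL methyltransferase complexes at the start sites of active or poised genes, mostly in CpG-rich promoters. At most genes the mark is narrow, but at some it spreads over several kilobases into the gene body. Such broad domains are known from many cell types, where they often lie at genes that specify the cell's identity.

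Stretches of strong enrichment are shown for 6 clusters, which stand for the 4 longest, for a long cluster without an aged peak (Rasa1) and for the longest one without a protein-coding start site (at Malat1). Each window lies inside a listed young peak, as near to the strongest summit as a window without annotated untranslated bases allows (at Meis1 the summit itself lies outside it), is written 5′ to 3′ on the forward strand of mm10, and was read from the RefSeq sequence of that assembly. Capitals mark the CCAAT box on either strand, the only one of 8 searched words that occurs in these 6 windows.
Ikzf2, chr1:69681957-69682156: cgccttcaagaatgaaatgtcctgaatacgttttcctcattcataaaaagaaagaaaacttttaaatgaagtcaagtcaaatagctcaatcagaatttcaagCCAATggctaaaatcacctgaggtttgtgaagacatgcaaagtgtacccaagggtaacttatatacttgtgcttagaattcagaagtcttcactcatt
Hlf, chr11:90387172-90387371: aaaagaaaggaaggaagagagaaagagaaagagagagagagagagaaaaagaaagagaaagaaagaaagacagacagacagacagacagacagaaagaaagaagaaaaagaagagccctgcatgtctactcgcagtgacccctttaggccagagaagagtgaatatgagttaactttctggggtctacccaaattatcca
Meis1, chr11:19018033-19018232: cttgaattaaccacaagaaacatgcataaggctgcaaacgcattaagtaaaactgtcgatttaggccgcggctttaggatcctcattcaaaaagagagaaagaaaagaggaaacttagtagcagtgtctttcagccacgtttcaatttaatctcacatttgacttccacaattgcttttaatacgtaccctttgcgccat
Erg, chr16:95458135-95458334: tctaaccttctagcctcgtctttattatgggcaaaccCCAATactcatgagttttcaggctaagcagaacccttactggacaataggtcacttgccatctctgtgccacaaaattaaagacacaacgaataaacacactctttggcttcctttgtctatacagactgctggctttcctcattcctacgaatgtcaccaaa
Rasa1, chr13:85290663-85290862: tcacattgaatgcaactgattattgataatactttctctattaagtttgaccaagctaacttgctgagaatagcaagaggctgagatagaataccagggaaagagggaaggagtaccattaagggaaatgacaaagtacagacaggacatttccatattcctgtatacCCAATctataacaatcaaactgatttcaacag
Malat1, chr19:5800752-5800951: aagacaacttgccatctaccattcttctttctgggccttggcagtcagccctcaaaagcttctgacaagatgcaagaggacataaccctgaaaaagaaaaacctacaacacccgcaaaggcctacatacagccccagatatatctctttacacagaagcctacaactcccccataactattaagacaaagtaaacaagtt
The windows held between 0 and 7 CpG dinucleotides in 200 bp, and their GC share was 35% at Ikzf2, 41% at Hlf, 39% at Meis1, 42.5% at Erg, 36.5% at Rasa1 and 43% at Malat1. At Hlf the first part of the printed window is a run of simple repeats rich in purines. The windows at Ikzf2, Erg and Rasa1 contain a CCAAT box. Windows at Sypl (45.5% GC, 7 CpG, with the E-box CACGTG) and at the noncoding gene 8430419K02Rik near Meis1 (58% GC, 11 CpG, none of the words) were also read. These are richer in GC and are not shown.

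The 512 clusters were, with 2 exceptions, chains of separate peaks. Their median length was 1822.5 bp (95% CI 1781 to 1875) and ranged from 1501 bp to 7823 bp. Of the clusters, 188 were 2 kb or longer, 42 were 3 kb or longer and 9 were 4 kb or longer. They joined 1530 young peaks, with a median of 3 peaks per cluster. In detail, 173 clusters joined 2 peaks, 223 joined 3, 77 joined 4 and 37 joined 5 or more, whereas 2 clusters, at Tal1 and Smpdl3a, were a single wide peak. Peaks covered a median of 56.3% of a cluster (95% CI 55.0 to 57.8), and the longest gap in a cluster had a median of 646 bp. The clusters spanned 1.05 Mb and held 15.8% of the length of all young peaks. Single peaks in the clusters were not stronger than elsewhere, with a median fold enrichment over background of 4.04 in both long clusters and shorter regions, and a median width of 334.5 bp against 291 bp. Just above the length threshold were the clusters at Slc43a1 (1501 bp), Arih2 (1502 bp) and Cdk12 (1502 bp). Just below it were the regions at Wwc2 (1498 bp), Lig3 (1497 bp) and Slc43a2 (1496 bp). The number of clusters depends on the rule itself, and was 192 with a joining distance of 500 bp and 1345 with a minimum length of 1000 bp.

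The 12 longest clusters spanned between 3952 bp and 7823 bp. Ikzf2, a zinc-finger factor of the Ikaros family, had the longest one, at chromosome 1, 69680604 to 69688426 (7823 bp). It joined 8 young peaks with fold enrichments from 2.69 to 4.64, and the aged list held 3 peaks there, of 3.96-fold, 4.10-fold and 2.59-fold, covering 897 bp. Hlf, a bZIP factor known to mark and maintain HSCs, had a cluster of 6569 bp at chromosome 11, 90383786 to 90390354, with 10 young peaks from 2.74-fold to 5.31-fold. This was the largest number of peaks in any cluster. The aged list held a single peak there, of 4.86-fold and 252 bp, over the upstream end of the cluster, so that 3.84% of its length was covered. Meis1, a homeobox factor needed by HSCs, had a cluster of 6112 bp at chromosome 11, 19015047 to 19021158, with 7 young peaks from 2.92-fold to 4.86-fold and 3 aged peaks from 3.76-fold to 4.20-fold. The aged peaks covered 664 bp, or 10.9% of it. Erg, an ETS factor of HSCs, had 4 young peaks from 3.92-fold to 5.74-fold in 4950 bp at chromosome 16, 95454417 to 95459366. Its 2 aged peaks (4.20-fold and 4.86-fold, 694 bp together) both lay inside the first young peak, which was 1979 bp wide, and the downstream 3 young peaks had none.

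Of the 12 longest clusters, the one at Alcam was covered most by aged peaks. Alcam, an adhesion molecule also known as CD166, had 7 young peaks from 2.88-fold to 4.68-fold in 4291 bp at chromosome 16, 52450395 to 52454685. The aged list held 5 peaks there, from 3.54-fold to 4.64-fold, which covered 1665 bp (38.8%), and 5 was the largest number of aged peaks in a long cluster. Nfe2, a bZIP factor of the megakaryocyte lineage, had 5 young peaks and 3 aged peaks in 3993 bp, with 34.6% covered. Wnk1, a kinase that controls ion transport, had 6 young peaks in 4081 bp and 1 aged peak of 3.00-fold that covered 5.86%. Msl2, a ubiquitin ligase of the MSL complex, had 6 young peaks in 4616 bp and 2 aged peaks that covered 10.9%. Rgs18, a regulator of G protein signaling, had 5 young peaks in 3982 bp and 2 aged peaks (16.5%), and the chromatin remodeler Chd2 had 6 young peaks in 3952 bp and 1 aged peak (7.62%). On chromosome 18, the zinc-finger genes Zfp521 (4452 bp, 6 young and 2 aged peaks) and Zfp608 (4125 bp, 6 young and 3 aged peaks) were 13.2% and 28.6% covered. All 12 of these longest clusters thus held at least 1 aged peak, and in each of them aged peaks covered less length than young peaks.

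**Figure D1:**
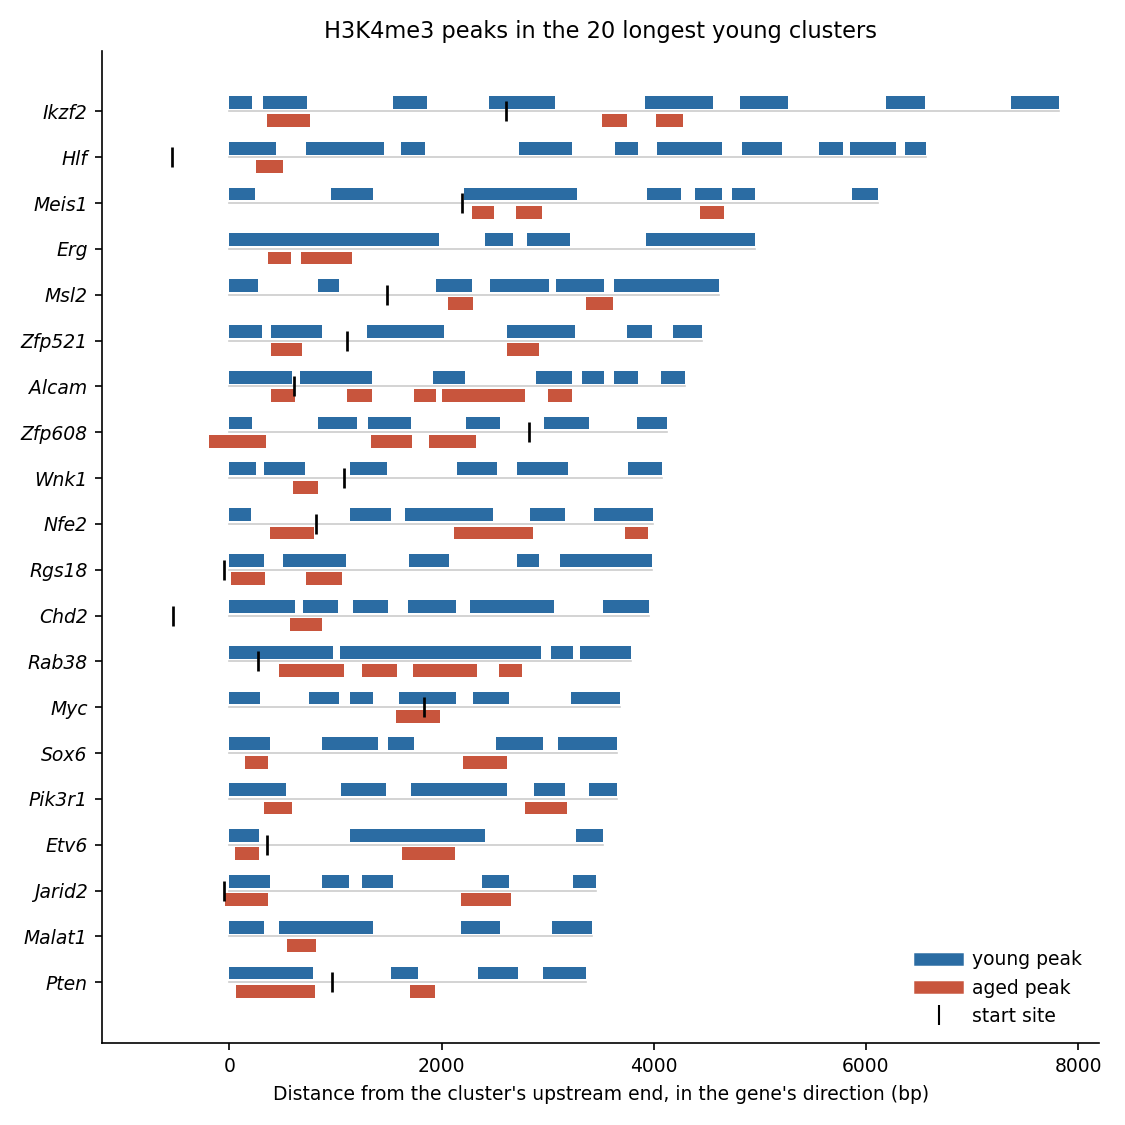
H3K4me3 peaks in the 20 longest young clusters, with the distance from the upstream end of each cluster in bp on the horizontal axis, in the direction of the gene; blue bars are young peaks, red bars are aged peaks and black ticks are start sites of principal transcripts of single-gene clusters, where one lies within 1 kb. Hlf joins 10 young peaks over 6569 bp and has 1 aged peak at its upstream end, whereas Alcam has 5 aged peaks.

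An aged H3K4me3 peak was found in 375 of the 512 long clusters (73.2%, 95% CI 69.2 to 76.9), compared with 37.9% of all joined young regions and 35.6% (34.5 to 36.6) of the shorter regions. Measured over bases, the values were close. Aged peaks covered 17.5% of the length of the long clusters and 19.9% of that of the shorter regions, and 22.1% and 21.4% of the length of the young peaks in them. The gaps between young peaks were covered to 11.1% and 11.5%. In number, 137 clusters held no aged peak, 219 held 1, 117 held 2, 28 held 3 and 11 held 4 or more. Only 19 long clusters (3.71%, 2.39 to 5.72) were covered over at least 50% of their length, compared with 18.3% (17.5 to 19.2) of the shorter regions. In 45 clusters (8.79%) the aged peaks were themselves part of an aged cluster of 1500 bp or longer. Of the 582 aged peaks in the clusters, 532 overlapped a young peak and 50 lay wholly in a gap.

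The share of regions with an aged peak was higher in longer regions, while the share of young peak length that aged peaks covered was similar from 500 bp upward. It was 22.1% in regions of 200 bp to under 300 bp, 62.5% from 1000 bp to under 1500 bp, 68.5% from 1500 bp to under 2000 bp, 76.7% from 2000 bp to under 3000 bp and 97.6% at 3000 bp or more (41 of 42). Over the same last 4 bands, aged peaks covered 24.2%, 22.8%, 20.99% and 21.8% of the length of young peaks. Clusters of 2 peaks held an aged peak in 69.9% of cases (95% CI 62.7 to 76.3), clusters of 3 in 69.1%, clusters of 4 in 81.8% and clusters of 5 or more in 94.6% (82.3 to 98.5).

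**Figure D2:**
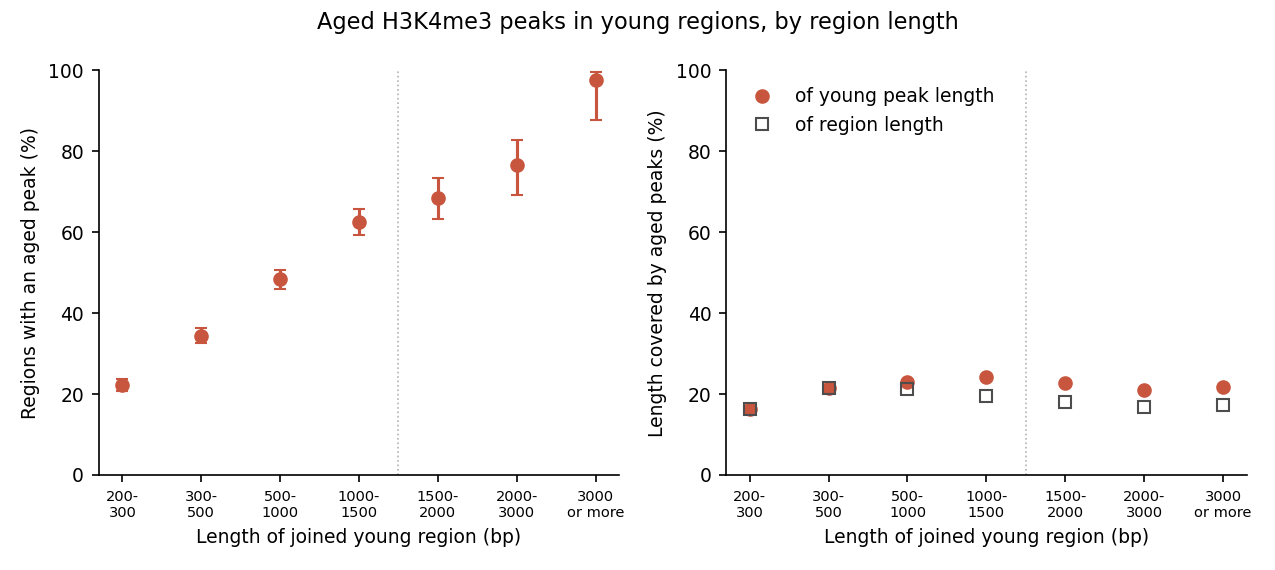
Aged H3K4me3 peaks in joined young regions by region length in bp. The left panel gives the percentage of regions with an aged peak (points, with Wilson 95% intervals) and the right panel the percentage of young peak length (circles) and region length (squares) covered by aged peaks; a dotted line stands at 1500 bp. The left share goes from 22.1% to 97.6%, while the covered young peak length lies between 16.3% and 24.2%.

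Taken peak by peak, 35.4% (95% CI 33.1 to 37.9) of the 1530 young peaks in long clusters were met by a peak of the aged list, compared with 31.1% (30.2 to 32.0) of the 9749 young peaks in shorter regions. The share was highest for the strongest young peaks. Among peaks with a −log10 q-value of 8 or more it was 57.4% (48.5 to 65.8) in long clusters and 45.8% (42.0 to 49.7) in shorter regions, and below 3 it was 28.9% (22.9 to 35.6) and 27.2% (24.9 to 29.6). Between 3 and 4 it was 28.0% (23.3 to 33.1) and 23.5% (21.8 to 25.3), so the share did not go up at every step. At values of 8 or more the young peaks were also wider in long clusters, with a median of 444.5 bp against 383 bp, and wider peaks can meet more aged peaks. The effect of width was not tested. Within a long cluster, the strongest peak overlapped an aged peak in 44.1% of cases (39.9 to 48.5), the second strongest in 33.7% (29.8 to 37.9) and the weaker ones in 28.3% (24.6 to 32.4). Where both ages had a peak in a long cluster, the strongest aged peak had a median of 0.899 times the fold enrichment of the strongest young peak (95% CI 0.884 to 0.920), and it was lower in 259 of 375 clusters. In shorter regions the ratio was 0.9905 (0.985 to 0.997). The strongest of several young peaks is compared with the strongest of fewer aged peaks here, and the young peaks were the ones that chose the clusters.

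**Figure D3:**
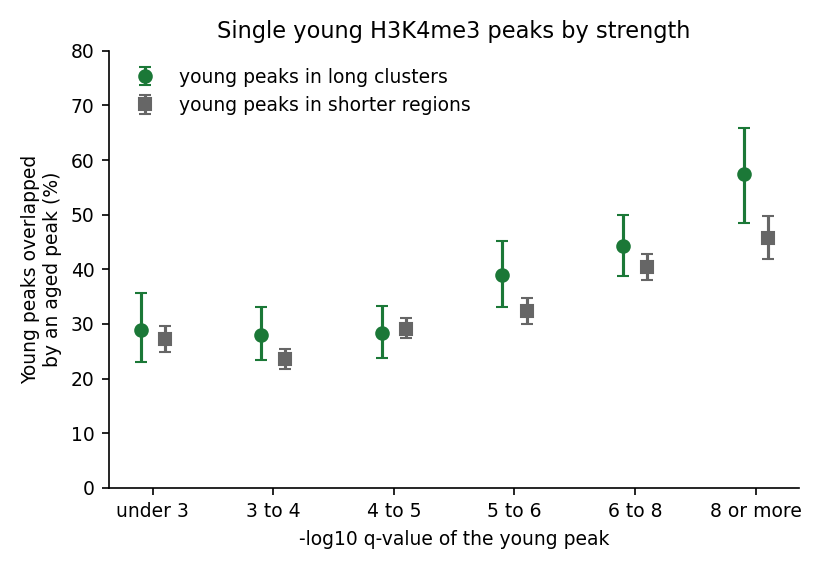
Percentage of single young H3K4me3 peaks that overlap an aged peak, by the −log10 q-value of the young peak, for peaks in long clusters (green circles) and in shorter regions (grey squares), with Wilson 95% intervals. The shares differ little below 5 in long clusters (28.0% to 28.9%), are lowest at 23.5% between 3 and 4 in shorter regions, and are highest at values of 8 or more (57.4% and 45.8%).

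The longest of the 137 clusters without an aged peak was at Sypl, a vesicle membrane protein, at chromosome 12, 32954710 to 32957826 (3117 bp), with 4 young peaks of up to 4.68-fold. Rasa1, which turns off Ras, had 4 young peaks of up to 6.05-fold in 2911 bp at chromosome 13, 85288003 to 85290913. Bcl11a, a zinc-finger factor of lymphoid and globin gene control, had 5 young peaks of up to 4.25-fold in 2906 bp at chromosome 11, 24080582 to 24083487. An aged peak did lie within 1 kb of a start site of Bcl11a, but outside this cluster. Frs2, an adaptor of fibroblast growth factor receptors, followed with 2843 bp, and a region 74909 bp from the nearest coding start, that of the helicase gene Dhx15, with 2774 bp. The others among the 10 longest were at the chaperone gene Dnajb4 (2685 bp), the adhesion receptor gene Adgrg1 (2611 bp), the RNA-binding protein gene Hnrnpul1 (2523 bp), Cd47 (2503 bp), whose product inhibits engulfment by macrophages, and the mannosidase gene Man1a (2483 bp). Strong young peaks were among them, as Cd47 had 3 young peaks that reached 6.38-fold and covered 84.7% of its cluster. The median of the strongest fold enrichment per cluster was 4.64 in the 137 clusters and 4.89 in the 375 clusters with an aged peak, with median lengths of 1775 bp and 1850 bp. The median ratio of observed to expected CpG was 0.716 and 0.659.

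The clusters with the highest −log10 q-value in the young list were also of both kinds. The cluster between 1810049J17Rik and Golph3, a Golgi protein gene, reached a −log10 q-value of 15.2 (7.62-fold), that at Dcaf6 and the pyruvate carrier gene Mpc2 14.5 (7.26-fold) and that at Phf12 13.6 (6.72-fold), and these 3 held no aged peak. Pik3cg, a phosphoinositide kinase gene of blood cells, reached 13.7 (7.06-fold) and had 2 aged peaks that covered 28.2% of 2501 bp. Sap130 and the pair of Ahsa1 and Vipas39 both reached 13.5 and were 23.8% and 34.9% covered.

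The 8 clusters with the largest share under aged peaks were covered to between 60.4% and 84.6%. The largest covered share, 84.6% of 1942 bp, was at chromosome 6, 92940536 to 92942477, 1015 bp from a coding start of the protease gene Adamts9 and at the start of the noncoding gene 9530026P05Rik. The young list had 3 peaks there of up to 5.74-fold and the aged list 3 peaks of up to 4.86-fold. Tal1, a bHLH factor that is required for blood formation, followed with 78.3% of 1572 bp at chromosome 4, 115057107 to 115058678, where 1 young peak (4.84-fold) faced 2 aged peaks of up to 4.35-fold. Znfx1, an RNA helicase gene that shares its promoter with the noncoding gene Zfas1, had 68.1% covered by 4 aged peaks of up to 5.53-fold, and its 3 young peaks (up to 4.44-fold) covered less, 40.4%. The next were the pairs Dlg2 and Tmem126b (65.7%) and Tmem176a and Tmem176b (62.1%), the sialyltransferase gene St8sia4 (61.6%), Nxpe5 (61.5%) and the pair Ganc and Tmem87a (60.4%). In 9 clusters the aged peaks covered more bases than the young peaks. Besides Znfx1 and Tmem176a with Tmem176b, these included the integrin gene Itga4 (853 bp against 814 bp) and a cluster near Kit, the receptor of stem cell factor (977 bp against 907 bp), which were chosen for mention after their values were seen.

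Most of the long clusters lay at promoters. A protein-coding start site was found within 1 kb of 466 clusters (91.0%, 95% CI 88.2 to 93.2), compared with 81.9% of all joined young regions and 81.3% (80.5 to 82.2) of the shorter ones. A start site lay inside the region in 75.6% (71.7 to 79.1) of the long clusters and 27.4% (26.4 to 28.4) of the shorter regions. Shorter regions from 1000 bp to under 1500 bp were like the long clusters in both, with 90.9% and 75.8%. In regions of 200 bp to under 300 bp these shares were 75.4% and 12.3%. Longer regions can reach more sites, and the effect of length was not tested. Of the clusters, 371 were at 1 gene, 93 at 2 and 2 at 3 or more, and 90 had genes on both strands. In all, 559 of 20698 protein-coding genes on these chromosomes (2.7%) had a long cluster. The strongest summit was intronic in 48.4% of the clusters, intergenic in 19.7%, in an untranslated region in 15.0%, in an exon of a noncoding gene or transcript in 13.7% and in coding sequence in 3.13%. In shorter regions these shares were 47.4%, 17.7%, 16.3%, 10.4% and 8.20%.

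Around the start site, long clusters and shorter regions both lay mostly inside the gene. Where a gene had several principal start sites there, the most upstream one was used in both sets, a choice that favours the downstream side. Among the 337 clusters at a single gene with a principal start site, the downstream reach had a median of 1446 bp (95% CI 1311 to 1576) and the upstream reach of 494 bp (426 to 545), and 268 (79.5%, 74.9 to 83.5) reached farther downstream. The share was 76.4% (75.3 to 77.6) among shorter regions. Of the length of young peaks around these sites, 73.4% was downstream in long clusters and 75.5% in shorter regions, and of the length of aged peaks 71.5% and 76.9%. A young peak covered the base in 41.0% of clusters at 350 bp upstream, in 17.3% within 100 bp of the start site, which is usually free of nucleosomes, and in 52.6% at 750 bp downstream. For aged peaks these maxima were 16.7% at 350 bp upstream and 18.6% at 650 bp downstream, with 9.38% at the start site. Shorter regions also had a dip there, with a young peak over the base in 18.4% at 250 bp upstream, 14.5% within 100 bp of the start site and 41.4% at 250 bp downstream. In long clusters the length of aged peaks was 31.1% of that of young peaks upstream and 28.3% downstream, and in shorter regions 22.8% and 24.6%. Aged peaks in the gaps between young peaks count in this measure. Over all 512 clusters, gaps made up 0.44 of 1.05 Mb, and over all 7891 shorter regions 0.556 of 3.82 Mb. Of the young peak length itself, aged peaks covered 22.1% and 21.4% in these full sets.

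**Figure D4:**
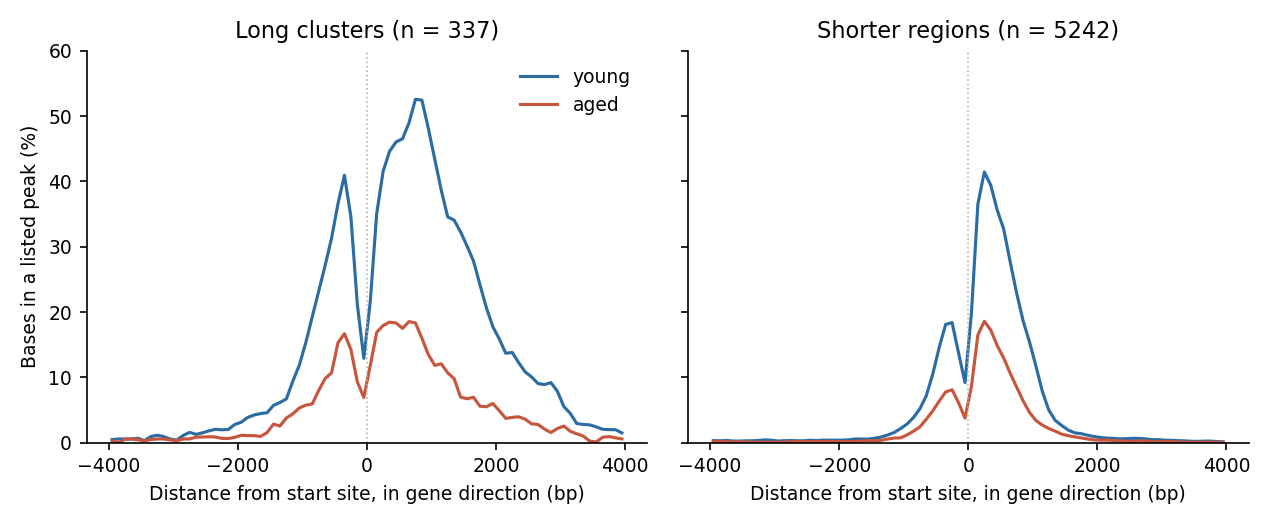
Percentage of bases in a listed H3K4me3 peak against the distance from the start site in bp (positive is inside the gene, in bins of 100 bp), for young (blue) and aged (red) peaks, at 337 long clusters and 5242 shorter regions with a single gene. Long clusters reach 52.6% (young) and 18.6% (aged) downstream and both sets of regions show a dip at the start site in both lists.

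HSC transcription factor genes often had a long cluster. Of 25 such genes, 13 had a long cluster (52.0%, 95% CI 33.5 to 70.0), compared with 2.7% of all protein-coding genes. These included Hlf, Meis1, Erg, Nfe2, Etv6 (3525 bp), Bcl11a, Runx1 (2230 bp), Mecom (2179 bp), Fli1 (2029 bp), Ikzf1 (1789 bp), Lyl1 (1774 bp) and Tal1. A further 6 genes, Gata2, Lmo2 and Myb among them, had a shorter region only, and 6, such as Gfi1 and Spi1, had no young region. The lists were chosen with earlier results of these data known, so the count is a description. The aged list held a peak in 12 of these 13 clusters, and aged peaks covered 18.2% of their length, against 17.5% in all 512. Runx1, a master regulator of blood formation, had 4 young peaks of up to 4.46-fold and 1 aged peak of 4.86-fold, which covered 14.9%. Mecom, which keeps HSCs quiescent, had 3 young peaks of up to 4.44-fold and 2 aged peaks of up to 5.00-fold, which covered 28.9%. Etv6 was covered to 20.5% and Ikzf1 to 13.0%.

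Of 28 genes of HSC surface and cytokine receptors, 1 (3.57%, 95% CI 0.633 to 17.7, near the 2.7% of all genes), the junction molecule gene Esam (1599 bp, 3 young peaks and 1 aged peak), had a long cluster, and 16 had a shorter region only. Among 36 immediate-early and stress genes, 8 had one (22.2%, 95% CI 11.7 to 38.1). Myc had the longest (3682 bp, 6 young peaks of up to 5.65-fold and 1 aged peak of 4.42-fold), followed by Ier2 (2741 bp), Klf6 (2472 bp), Trp53 (2462 bp), Atf3 (2072 bp), Fosb (1997 bp), Foxo3 (1671 bp) and Klf13 (1596 bp), and all 8 clusters held an aged peak. Of 54 chromatin regulators, 6 had one (11.1%, 95% CI 5.19 to 22.2). Jarid2, a subunit of Polycomb repressive complex 2, had 5 young peaks of up to 4.30-fold and 2 aged peaks of up to 5.28-fold in 3455 bp. Kmt2e had 2 long clusters (2343 bp and 1779 bp), and these and the clusters at Smarca4 and Suz12 held no aged peak, whereas those at Ncor1 and Kmt2a held 1 each. At Kmt2e an aged peak did lie within 1 kb of a start site, outside both clusters, whereas none did at Smarca4 and Suz12. Splicing and RNA-binding factors had 8 of 40 (20.0%, 95% CI 10.5 to 34.8) and housekeeping genes 3 of 24 (Pfn1, Gapdh and Cfl1, 12.5%, 95% CI 4.34 to 31.0). The intervals of the immediate-early, chromatin, splicing and housekeeping lists all lie above the 2.7% of all genes. Cell cycle regulators had 2 of 30 (E2f3 and Cdkn1b, 6.67%, 95% CI 1.85 to 21.3), an interval that includes the 2.7% of all genes. None of 76 ribosomal protein genes had a long cluster (0%, 95% CI 0 to 4.81, which includes the share of all genes), and 50 had a shorter region. Among 22 genes known to rise in HSC aging, 1, Alcam, had a long cluster (4.55%, 95% CI 0.807 to 21.8), again near the share of all genes. Over all 20698 genes, 559 had a long cluster, 6855 a shorter region only and 13284 no young region. No long cluster was found at 7 B cell, 7 T cell, 8 granulocyte and monocyte, 8 erythroid, 4 megakaryocyte and 5 endothelial and stromal marker genes, and shorter regions at 2 of the B cell, 1 of the erythroid and 1 of the stromal genes. The upper bounds of the 95% CI for these short lists were 32.4% or more, so they include the share of all genes. Of 8 HSC markers, 3 (Hlf, Meis1 and Mecom) had a long cluster, 3 a shorter region and 2 none.

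Seen from the genes, an aged peak lay within 1 kb of a start site in 397 of the 559 genes with a long cluster (71.0%, 95% CI 67.1 to 74.6), in 50.9% (49.7 to 52.1) of those with a shorter region only and in 9.41% (8.92 to 9.92) of those without a young region. The share over all genes was 24.8%.

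**Figure D5:**
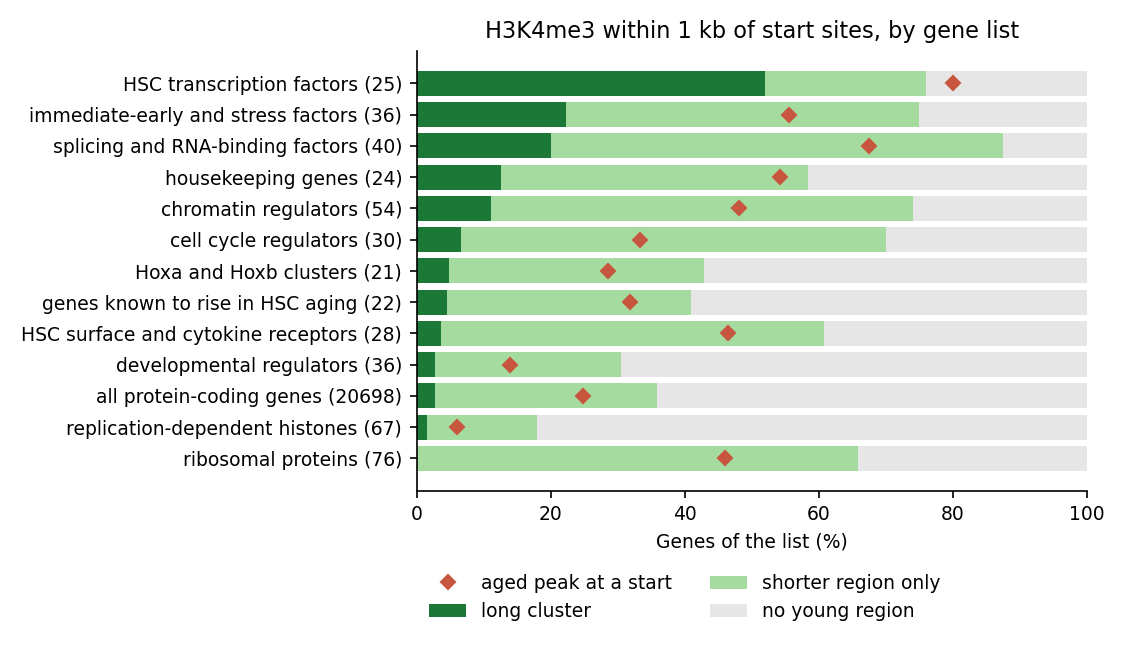
Percentage of the genes of each list (number of genes in brackets) with a long young cluster (dark green), a shorter young region only (light green) or no young region (grey) within 1 kb of a start site; red diamonds give the percentage with an aged H3K4me3 peak there. HSC transcription factors have a long cluster in 13 of 25 genes, ribosomal protein genes in 0 of 76.

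In 46 clusters no protein-coding start lay within 1 kb, and 21 of these had the start of a noncoding gene and 14 lay within a coding gene. An aged peak was found in 31 of the 46 (67.4%, 95% CI 53.0 to 79.1). The longest was at chromosome 19, 5800050 to 5803467 (3418 bp), at the start of the abundant nuclear RNA Malat1, with 4 young peaks of up to 5.95-fold and 1 aged peak of 4.20-fold (8.19% covered). At chromosome 11, 18874518 to 18877549, a cluster of 3032 bp lay at the start of the noncoding gene 8430419K02Rik, 141165 bp from the nearest start of Meis1. It had 4 young peaks of up to 5.10-fold and 2 aged peaks of up to 4.42-fold (25.5%). Other noncoding starts were those of Lncpint (2918 bp, 13.0% covered) and Mir99ahg (2694 bp, 2 aged peaks of up to 5.14-fold, 54.6% covered), the latter the host gene of a microRNA cluster that HSCs express. Within genes lay the clusters in Zfp608 (3100 bp), Car2 (2933 bp) and Angpt1 (2661 bp), which were covered to 12.5%, 7.77% and 27.3%.

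The Polycomb marks were present at a minority of the clusters. Young H3K27me3 overlapped 36 long clusters (7.03%, 95% CI 5.12 to 9.58), near the 8.59% of all joined regions, and aged H3K27me3 overlapped 21 (4.10%, 2.70 to 6.19), all of them among the 36, against 3.77% of all regions. Young H2AK119ub1 was listed in 1 cluster, at Tmem74b, and in 0.155% of all regions. Aged H2AK119ub1 overlapped 72 clusters (14.1%, 11.3 to 17.3), against 8.01% of all regions and 7.62% of the shorter ones. In the length bands under 1500 bp its share lay between 7.01% and 8.36%. It was 12.7% from 1500 bp to under 2000 bp and 15.8% from 2000 bp to under 3000 bp. Longer regions can meet more peaks, and the effect of length was not tested. Only 1.37% of the long clusters were covered by aged H2AK119ub1 over at least 50% of their length. Of the 72, 27 also had young H3K27me3 and 45 had H3K27me3 at neither age. When the Polycomb lists alone were restricted to −log10 q-values of 4 or more, a choice made after seeing the data, young H3K27me3 overlapped 2.34% (1.35 to 4.05) of the 512 clusters and aged H2AK119ub1 0% (0 to 0.745). Shorter regions were not counted under this setting, so these shares cannot be called particular to the long clusters.

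Some of the longest clusters carried 1 of the marks and others both. Hlf, Meis1, Wnk1 and Myc carried aged H2AK119ub1 over 414, 209, 452 and 859 bp and no H3K27me3 region, as did the pair Polr2l and Tspan4 (646 bp) and the mineralocorticoid receptor gene Nr3c2 (537 bp). Sox6, a transcription factor gene of erythroid and cartilage cells, had 2430 bp of young and 405 bp of aged H3K27me3 and 1787 bp of aged H2AK119ub1 in 3651 bp. Vcan, a matrix proteoglycan gene, had 2074, 1131 and 1424 bp in 3335 bp. An aged H3K4me3 peak was found in 24 of the 36 clusters with young H3K27me3 (66.7%, 95% CI 50.3 to 79.8), in 55 of the 72 with aged H2AK119ub1 (76.4%, 65.4 to 84.7) and in 72.6% (68.2 to 76.6) of the 431 clusters with no Polycomb mark, intervals that overlap.

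The GC share of long clusters was close to that of shorter regions. Their CpG ratio was higher than in all shorter regions together, but not higher than in shorter regions from 1000 bp to under 1500 bp. The median GC share was 55.9% in long clusters (95% CI 55.1 to 56.6) and 56.2% (56.0 to 56.4) in shorter regions, and the median ratio of observed to expected CpG was 0.675 (0.655 to 0.698) and 0.630 (0.624 to 0.637). In windows of 300 bp on the strongest summit both GC and CpG were lower in long clusters, with a median GC share of 53.0% (51.7 to 54.0) against 56.0% (55.7 to 56.3) and 11 against 13 CpG dinucleotides. Along the length, the median GC share was 56.0% in regions of 200 bp to under 300 bp, 57.3% from 1000 bp to under 1500 bp and 49.7% at 3000 bp or more. The CpG ratio was 0.587 and 0.719 in the first 2 of these bands. It was 0.706 from 1500 bp to under 2000 bp, 0.622 from 2000 bp to under 3000 bp and 0.538 at 3000 bp or more. Rgs18 had a GC share of 32.4% and a CpG ratio of 0.182, and Erg 45.3% and 0.303, whereas the CpG ratio was 0.805 at Msl2 and 0.820 at Zfp521.

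In windows of 300 bp centred on the strongest summit, short words of known factors occurred about as often as in all 8403 regions. The GC box (GGGCGG, bound by Sp1) was present on either strand in 28.1% of the long clusters (95% CI 24.4 to 32.2) against 31.9% of all regions, and CCAAT in 24.4% (20.9 to 28.3) against 25.4%. The E-box CACGTG was present in 5.27% and 5.34%, the GATA word AGATAA in 7.03% and 8.33%, and the AP-1 word TGACTCA in 4.10% (2.70 to 6.19) and 2.78%. The ETS word CCGGAAGT (0.781% and 1.58%), the CRE TGACGTCA (0.391% and 0.678%) and the NRF1 word GCATGCGC (0.781% and 1.09%) were rare. The words do not contain one another. In each case the share over all regions, which include the long clusters, lay inside the interval of the long clusters. Against the shorter regions alone the GC box, at 32.19%, lay just above the upper bound of 32.17%. At promoters the GC box was present in 29.2% (25.2 to 33.5) of the long clusters and 34.2% of the shorter regions.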

How the data were processed

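ChIP-seq reads of 3 histone marks and input were aligned by the authors to mm10 with Bowtie2. MACS2 2.2.6 is named in the submitters' processing notes, and the peak names carry a q-value setting of 0.05. For each peak the deposited lists give the fold enrichment (a linear ratio), the −log10 p-value and the −log10 q-value, and a display score that was not used. Duplicate and multi-mapped reads affect which peaks are listed. H3K4me3 peak names carry 2 library numbers, those of the broad lists 1, so the latter may rest on a single library. A whole read pileup could be recovered from fold and p-value for 100% of peaks (tolerance 0.001 in −log10 p).

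Peaks on chromosomes 1 to 19 were joined (1 kb) and compared by overlap of at least 1 bp in Python 3.11.15 (numpy 2.4.6, pandas 2.3.3, scipy 1.17.1), with counts checked in bedtools 2.31.1 and on simulated data. Promoters were 1 kb around protein-coding starts of GENCODE M21, sequence was read with pysam 0.24.0, and plots were made with matplotlib 3.10.9. Intervals are 95% Wilson intervals for shares and order-statistic intervals for medians. Named clusters were the 12 longest, the 10 longest without an aged peak, the 8 most covered by aged peaks, the 6 of highest −log10 q-value, the 5 joining most peaks, those at listed regulators (1 of them not reported here), the 8 longest without a coding start, the 8 longest with a Polycomb mark and 3 on each side of the threshold. Members, lists and rules were chosen with earlier results of these data known. No test was possible with 1 list per mark and age.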

Additional observations from a re-analysis of the deposited data

How the results depend on the processing

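No paired analysis was possible because only 1 pooled list of each mark was used per age, and no library could be left out. Of 55 alternatives, 23 stayed within the interval of the reported share or median, or within 1.5 times the reported count or covered length, and 32 moved. The number of long young clusters (512) was 192 and 779 with joining distances of 500 bp and 2 kb, 188 and 1345 with minimum lengths of 2000 and 1000 bp, 240 with −log10 q-values of 4 or more and 211 with the same number of top peaks at both ages. The number of long aged clusters (123) was 29, 267, 34, 451 and 39 under the first 5 of these. The share with an aged H3K4me3 peak (73.2%) was 78.1% at 500 bp, 81.4% and 66.6% with the minimum lengths of 2000 and 1000 bp, 54.2% at the stricter q-value and 3.71% where at least 50% had to be covered. With the same number of peaks it was 74.9%, against 38.2% of shorter regions. The covered length stayed between 12.1% and 21.7%. The promoter share was 88.0% at 500 bp joining distance and 87.5% with promoters of 500 bp. The share with young H3K27me3 was 2.08% at the stricter q-value, 2.84% with the same number of regions and 4.49% at 50% covered. The share with aged H2AK119ub1 was 17.5% at 2 kb, 9.81% at 1000 bp, 0% at the stricter q-value, 2.37% with the same number and 1.37% at 50% covered. With the stricter q-value in the Polycomb lists only, chosen after seeing the data, these shares were 2.34% and 0%. The Polycomb shares under these settings were computed for the long clusters only. The median CpG ratio was 0.590 and 0.705 with the joining distances of 500 bp and 2 kb, and 0.605 and 0.704 with the minimum lengths of 2000 and 1000 bp. The cause of these shifts was not tested. Depth limits how many weak peaks are listed, and a pooled list can hold peaks of a single library.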

Other observations

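The aged list had 123 clusters of 1500 bp or longer among 5596 joined aged regions, and 112 of them lay at a protein-coding promoter. Of the 123, 45 overlapped a long young cluster, 66 a shorter young region only and 12 no young peak. The longest, at Mycn, a Myc family gene, spanned 3516 bp with 4 aged peaks and met a long young cluster. Trib2, a pseudokinase gene, had 2928 bp with 4 aged peaks of up to 4.42-fold and 1 young peak, and Rspo3, which codes for a Wnt signal enhancer, had 2719 bp with 3 aged and 2 young peaks. Gse1 and Magi2 had 2432 bp and 2362 bp with 1 young peak each. These were named after their values were seen, as were the following places.

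Dnajb4 had a long young cluster of 2685 bp without an aged peak. An aged cluster of 2338 bp without a young peak lay 15857 bp away, at another start of Dnajb4 and that of Fubp1. At the Hox genes, Hoxa7 had a long young cluster of 3167 bp that was 40.1% covered by 3 aged peaks, and a cluster of 1775 bp near Hoxa9, over the microRNA gene Mir196b, was 43.4% covered. Outside chromosomes 1 to 19, 1 of 86 joined young regions was 1500 bp or longer. It lay at the histone demethylase gene Kdm6a on chromosome X (2681 bp, 3 young and 3 aged peaks, 1148 bp covered).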
